A study of Arabidopsis thaliana with 4 samples.

Results

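The genes described here are those whose RNA was most abundant in Arabidopsis thaliana fruits of days 6 to 10, compared with younger and older fruits. They are 234 loci of the 29971 in the deposited files. A locus was taken when it named a single gene, spanned at least 300 bases, was above 0 in all 4 libraries, had an FPKM of at least 10 at days 6 to 10, and was then at least 1 log2 unit (2-fold) above each other library on the log2(FPKM + 1) scale. FPKM is the number of sequenced fragments per kilobase of transcript and per M (mega) sequenced fragments. Of the 19066 single-gene loci of that length above 0 in every library, 15 were left out by their identifiers and 9330 had the required FPKM at days 6 to 10. These 9330 are called eligible loci below, and the 234 peaking loci were 2.51% of them. The same rule gave 1299 loci for days 0 to 5 (14.5% of those eligible there), 235 for days 11 to 15 (2.50%) and 310 for days 16 to 20 (3.26%).

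The fruits, pods with the developing seeds inside and known as siliques, came from the accession Col-0, unmutated and untreated in all groups, and were grown in long days. Stage 1 held siliques of days 0 to 5 after the flower opened (anthesis), stage 2 those of days 6 to 10, stage 3 those of days 11 to 15 and stage 4 those of days 16 to 20, as the developmental stage labels give them. The growth protocol in the labels differs: it starts stage 1 at day 1, names stage 2 a second time for days 11 to 15 and gives days 6 to 10 for stage 4 as well as for stage 2. The developmental stage labels were followed, so the days named for each library rest on them. Each stage was 1 library of total RNA from whole siliques, made with a kit that does not mark the strand. Reads of overlapping and antisense genes therefore cannot be told apart, and no value below has a replicate error or a test. In whole fruits, fewer cells of a type and less RNA per cell cannot be told apart.

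After fertilization the silique holds several tissues of different origin. The endosperm, the product of a second fertilization, first divides as a syncytium, then forms cell walls and is largely consumed by the embryo. The seed coat grows from maternal ovule tissue. Its innermost layer makes proanthocyanidins, flavonoid polymers that turn the mature seed brown, and its outermost layer makes mucilage. Some genes of the endosperm are imprinted, which means that the copy from 1 parent is the more active one. Small secreted peptides with conserved cysteines, such as defensin-like and lipid-transfer proteins, serve in plants as antimicrobial compounds, carriers of lipids and signals between cells, and many are known from reproductive tissue.

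The low FPKM values fell on steps that give, under the plain FPKM formula, about 67, 106.3, 69.2 and 62 M fragments in the libraries of stages 1, 2, 3 and 4. If the libraries were also scaled to each other, these are relative depths. Among the 183 peaking loci with a transcript of at least 600 bases, the lowest stage 2 value stood for about 469 fragments and the median for 4836. For 2 of them the stage 1 value stood for under 3 fragments, for 1 the stage 3 value and for 2 the stage 4 value. Pollen markers summed to 392, 12.7, 4.99 and 5.39 FPKM in stages 1, 2, 3 and 4, and readable embryo storage markers to 9.69, 1075, 54313 and 67876 FPKM. Pod wall photosynthesis markers summed to 17029, 7844, 4005 and 2679.8 FPKM. None of these 3 lists peaked in stage 2, and their part in the results below was not tested.

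The values of stage 2 chose the loci, so their height is a description. Stage 2 FPKM of the 234 loci ranged from 10.4 to 2721. Their median FPKM was 6.58, 35.5, 7.46 and 4.00 in stages 1 to 4, while eligible loci as a whole had medians of 24.9, 26.0, 27.7 and 25.9 FPKM. The peaking loci carried 4.12% of the FPKM summed over eligible loci in stage 2, against 0.687%, 0.562% and 0.397% of it in stages 1, 3 and 4. The median fold over the next highest stage was 2.99, and 66 loci were at least 2 log2 units above it. For 118 of the 234 loci this margin was under 1.5 log2 units.

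The loci were split by where their second highest value lay, which for most was stage 1 or stage 3. It was stage 1 for 104 loci (44.4%), stage 3 for 107 (45.7%) and stage 4 for 23 (9.83%). The same split was not counted over eligible loci. Loci with stage 1 second had median FPKM of 12.9, 58.0, 5.71 and 3.71 in stages 1 to 4, and none of them was under FPKM 1 in stage 1. Loci with stage 3 second had medians of 2.70, 30.4, 8.52 and 3.08 FPKM, and 36 of the 107 were under FPKM 1 in stage 1. Loci with stage 4 second had medians of 8.23, 33.5, 5.79 and 11.9 FPKM. The split itself sets which of the other stages ranks second, and loci with stage 3 second could still be abundant in stage 1, as COR47 was with 149.9 FPKM.

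**Figure D1:**
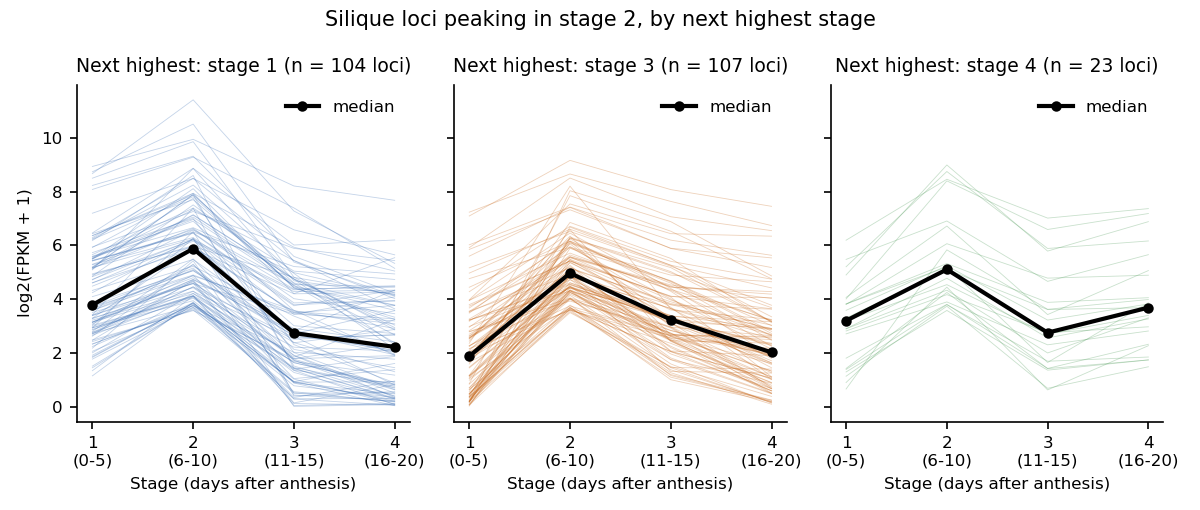
Each thin line is 1 of the 234 loci peaking in stage 2, plotted as log2(FPKM + 1) against stage (days after anthesis in brackets), in panels by the stage with the second highest value; the black line is the median of the log2 values. The median line of the 104 loci with stage 1 second is lowest in stage 4, that of the 107 loci with stage 3 second starts lowest of the 3 panels although single loci start high, and the 23 loci with stage 4 second are higher in stage 4 than in stage 3.

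Contrasts that leave stage 2 out were not used directly by the rule, although it limits how high stages 1, 3 and 4 can be. Stage 3 was at least 1 log2 unit above stage 1 for 57 peaking loci (24.4%), against a background of 20.7% of eligible loci, and at least 1 below it for 56 (23.9%), against 20.5%. With the libraries scaled to equal FPKM sums over loci of 300 bases or more, which changes the set to 423 loci, the split was 98 higher and 76 lower. Stage 4 was lower than stage 3 by that limit for 91 peaking loci (38.9%), against a background of 6.48%, and higher for 8 (3.42%), against 2.36%. The median difference of stage 4 from stage 3 was -0.81 log2 units over the peaking loci and -0.08 over eligible loci. Stage 4 was lower than stage 1 for 82 peaking loci (35.0%), against a background of 22.1%, and higher for 25 (10.7%), against 19.1%. The rule keeps stages 1, 3 and 4 below stage 2, so low values in them are partly set by it. Under FPKM 1 were 38 of the peaking loci (16.2%) in stage 1, 21 (8.97%) in stage 3 and 61 (26.1%) in stage 4. Among eligible loci the shares in stages 1, 3 and 4 were 1.74%, 0.868% and 1.38%.

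The sharpest peak belonged to BG3, a beta-1,3-glucanase, an enzyme class that cuts callose and related glucans of the cell wall. BG3 had 4.16, 294, 11.5 and 4.76 FPKM in stages 1 to 4, a value in stage 2 that was 25.5 times the next highest. Its neighbour BG1, of the same class, had 1.23, 13.9, 0.229 and 0.0485 FPKM in stages 1 to 4. Both were thus low on either side of stage 2, at levels that differed by more than 10-fold at the peak. AT3G24068, of the self-incompatibility S1 family of small secreted proteins, had 2.03, 95.5, 4.41 and 0.878 FPKM in stages 1 to 4. MLP328, of the major latex protein family, had 33.2, 464, 24.8 and 17.2 FPKM in stages 1 to 4. EXPA21, an expansin, a protein that loosens cell walls, had 6.67, 90.5, 0.327 and 0.488 FPKM in stages 1 to 4. EXPA21 was under FPKM 1 in both later stages, whereas MLP328 kept a level above 17 FPKM in each. RABB1a, a small GTPase of vesicle traffic, had 0.300, 12.0, 1.02 and 0.144 FPKM in stages 1 to 4. AT3G13370, annotated as formin-like, had 1.23, 15.6, 1.25 and 0.161 FPKM in stages 1 to 4. These last loci reached FPKM of 12.0 and 15.6, close to the lower limit of the rule.

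The most abundant of the 234 RNAs came from AT1G56100, of the invertase and pectin methylesterase inhibitor family, whose members block enzymes that split sucrose or modify pectin. AT1G56100 had 406, 2721, 154 and 39.4 FPKM in stages 1 to 4. A second member of that family, AT4G15750, had 426, 1456, 40.7 and 16.6 FPKM in stages 1 to 4. Both were second highest in stage 1 and lowest in stage 4. GASA1, a gibberellin-regulated cysteine-rich peptide, had 489, 984, 295 and 204 FPKM in stages 1 to 4, only just inside the 2-fold limit. AT5G51105, of the ECA1 gametogenesis family, had 361, 926, 27.3 and 6.29 FPKM in stages 1 to 4. AT5G09370, of the lipid-transfer superfamily, had 299, 636, 47.3 and 17.8 FPKM in stages 1 to 4. All 5 were second highest in stage 1. MIOX1, which opens the ring of myo-inositol to give glucuronate, had 29.0, 508, 54.4 and 117 FPKM in stages 1 to 4, with its second highest value in stage 4. AT2G17710, annotated as Big1, had 136, 572, 269 and 174 FPKM in stages 1 to 4. LHB1B1, a chlorophyll-binding protein of the photosystem II antenna, had 87.4, 466, 63.8 and 72.8 FPKM in stages 1 to 4. The antenna genes are a family of near-identical copies, so the split of fragments among them is uncertain.

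Genes of the flavonoid and proanthocyanidin pathway were frequent among the peaking loci. Their list, like all gene lists here, was chosen with earlier results of these data known, so its shares are a description. Of 20 listed genes, 16 were eligible and 6 peaked in stage 2 (37.5%, against a background of 2.51%), and 12 of the 16 (75.0%) had their highest value in stage 2, as did 20.2% of all eligible loci. The median margin of stage 2 over the highest other stage was 0.52 log2 units for the 16 and -0.44 for eligible loci. The list as a whole summed to 1072, 2294, 710.4 and 668 FPKM in stages 1, 2, 3 and 4.

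The early enzymes of the pathway were abundant in stage 1 already. TT4, chalcone synthase, which makes the first flavonoid skeleton, had 470.2, 697, 58.9 and 85.2 FPKM in stages 1 to 4. TT5, chalcone isomerase, had 51.5, 71.4, 12.6 and 12.2 FPKM in stages 1 to 4. F3H, flavanone 3-hydroxylase, had 122, 125, 26.9 and 71.4 FPKM in stages 1 to 4. None of these 3 reached the 2-fold limit. CHIL, a chalcone isomerase-like protein outside the list that was picked after its values were seen, had 85.9, 207, 21.7 and 11.1 FPKM in stages 1 to 4 and did reach it. TT7, the flavonoid 3′-hydroxylase, had 43.8, 119, 24.4 and 49.5 FPKM in stages 1 to 4. Its second highest value was in stage 4, and with libraries scaled to equal FPKM sums its margin was 0.27 log2 units. FLS1, flavonol synthase, which draws the same precursor into flavonols, had 70.0, 12.4, 6.76 and 48.0 FPKM in stages 1 to 4, with its peak in stage 1.

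The enzymes that lead to proanthocyanidins showed the largest margins of the list. DFR, dihydroflavonol reductase, had 34.8, 237, 20.6 and 9.11 FPKM in stages 1 to 4. LDOX, leucoanthocyanidin dioxygenase, which acts on the product of DFR, had 44.7, 275, 20.3 and 8.57 FPKM in stages 1 to 4. BAN, anthocyanidin reductase, which makes the epicatechin units of proanthocyanidins, had 77.3, 359.9, 42.4 and 15.3 FPKM in stages 1 to 4. The 3 profiles were alike, with stage 2 between 4.66 and 6.83 times the value of stage 1, and stage 4 below stage 3 in each. GSTF12, a glutathione S-transferase needed to bring pigments into the vacuole, had 47.5, 118, 11.0 and 6.56 FPKM in stages 1 to 4. TT12, the vacuolar transporter of their precursors, had 15.4, 15.5, 0.0927 and 0.0481 FPKM in stages 1 to 4 and did not peak in stage 2. TT10, a laccase that oxidizes the polymers late in the seed coat, had 1.18, 126, 388 and 279.6 FPKM in stages 1 to 4, its highest value being in stage 3. Among the regulators, TT2, a MYB factor that with TT8 and TTG1 activates BAN, had 8.37, 18.8, 1.66 and 2.68 FPKM in stages 1 to 4. TT8, the bHLH partner, had 3.86, 21.4, 15.2 and 13.5 FPKM in stages 1 to 4, and TTG1, the WD-repeat partner, had 39.2, 39.7, 48.2 and 39.4 FPKM in stages 1 to 4. Of these 3, TT2 alone met the rule. MYB11, a regulator of flavonol synthesis that is outside the list and was picked after its values were seen, had 2.66, 13.4, 0.897 and 0.925 FPKM in stages 1 to 4.

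The promoters of the 6 peaking genes of the list are printed because the genes share a peak and their known regulators, MYB and bHLH factors, bind short motifs. Each is the 250 bases before the RefSeq gene start on TAIR10.1, read on the gene's strand, and capitals mark the MYB-core letters CAACCA on either strand (TGGTTG when reversed) and the G-box CACGTG. The 2 motifs share no letters in these windows. The promoters lie at chr5:17166033-17166282 (minus strand for DFR), chr4:12006210-12006459 (minus strand for LDOX), chr1:22792804-22793053 (minus strand for BAN), chr5:5658166-5658415 (+ strand for GSTF12), chr5:2560078-2560327 (+ strand for TT7) and chr5:13726493-13726742 (+ strand for TT2).
DFR: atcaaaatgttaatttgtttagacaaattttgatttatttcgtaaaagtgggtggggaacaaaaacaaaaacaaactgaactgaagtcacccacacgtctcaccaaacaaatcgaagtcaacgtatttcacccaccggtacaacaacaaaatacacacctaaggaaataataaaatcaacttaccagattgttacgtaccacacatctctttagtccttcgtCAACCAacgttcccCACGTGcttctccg
LDOX: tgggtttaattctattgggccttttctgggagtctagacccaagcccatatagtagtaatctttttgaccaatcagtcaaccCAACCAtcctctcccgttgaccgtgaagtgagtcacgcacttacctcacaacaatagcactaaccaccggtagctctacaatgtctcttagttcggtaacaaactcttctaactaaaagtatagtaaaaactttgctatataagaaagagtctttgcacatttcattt
BAN: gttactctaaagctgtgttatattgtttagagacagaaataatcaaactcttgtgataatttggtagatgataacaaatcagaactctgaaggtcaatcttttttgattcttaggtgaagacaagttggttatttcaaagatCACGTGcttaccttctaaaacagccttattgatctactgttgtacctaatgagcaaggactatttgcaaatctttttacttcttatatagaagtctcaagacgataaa
GSTF12: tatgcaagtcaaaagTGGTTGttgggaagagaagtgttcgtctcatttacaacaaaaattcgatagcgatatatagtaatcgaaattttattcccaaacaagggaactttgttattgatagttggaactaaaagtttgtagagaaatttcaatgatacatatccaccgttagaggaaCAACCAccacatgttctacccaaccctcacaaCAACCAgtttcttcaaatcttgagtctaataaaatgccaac
TT7: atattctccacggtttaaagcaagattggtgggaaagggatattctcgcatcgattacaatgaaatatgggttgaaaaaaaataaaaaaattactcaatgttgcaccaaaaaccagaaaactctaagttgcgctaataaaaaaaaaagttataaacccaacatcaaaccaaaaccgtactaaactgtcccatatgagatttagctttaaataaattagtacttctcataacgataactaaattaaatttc
TT2: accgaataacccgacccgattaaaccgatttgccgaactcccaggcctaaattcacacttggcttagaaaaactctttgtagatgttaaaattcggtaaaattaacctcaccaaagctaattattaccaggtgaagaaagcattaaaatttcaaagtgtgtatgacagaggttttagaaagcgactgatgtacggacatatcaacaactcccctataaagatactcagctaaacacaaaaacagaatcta

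DFR held 1 MYB-core and 1 G-box, LDOX 1 MYB-core, BAN 1 G-box and GSTF12 3 MYB-cores, while TT7 and TT2 held neither. In the printed windows 3 of the 6 thus held a MYB-core and 2 a G-box. Of the 6 genes, 4 held a MYB-core when the window was extended to 50 bases after the start, a motif found in 14.8% of the windows of that length of all 37897 genes, and 2 held a G-box, found in 6.46% of them. Over the peaking loci as a whole, 15.0% of 233 such windows held the MYB-core and 8.15% the G-box, against 14.0% and 9.61% of eligible loci. The RY motif CATGCA, which B3 factors of seed maturation bind, was found in 14.6% of these windows. It was in 8.09% of those of eligible loci and in 10.4% of those of all genes. For loci peaking in stages 1, 3 and 4 by the same rule the shares were 10.9%, 16.6% and 20.0%. The TATA letters TATAAA were in 58.8% and 52.0%, the prolamin-box letters TGTAAAG in 8.58% and 5.62%, and AACAAAC in 12.9% and 12.8% of the windows of peaking and eligible loci. A match is a description of the letters, with both strands searched.

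**Figure D2:**
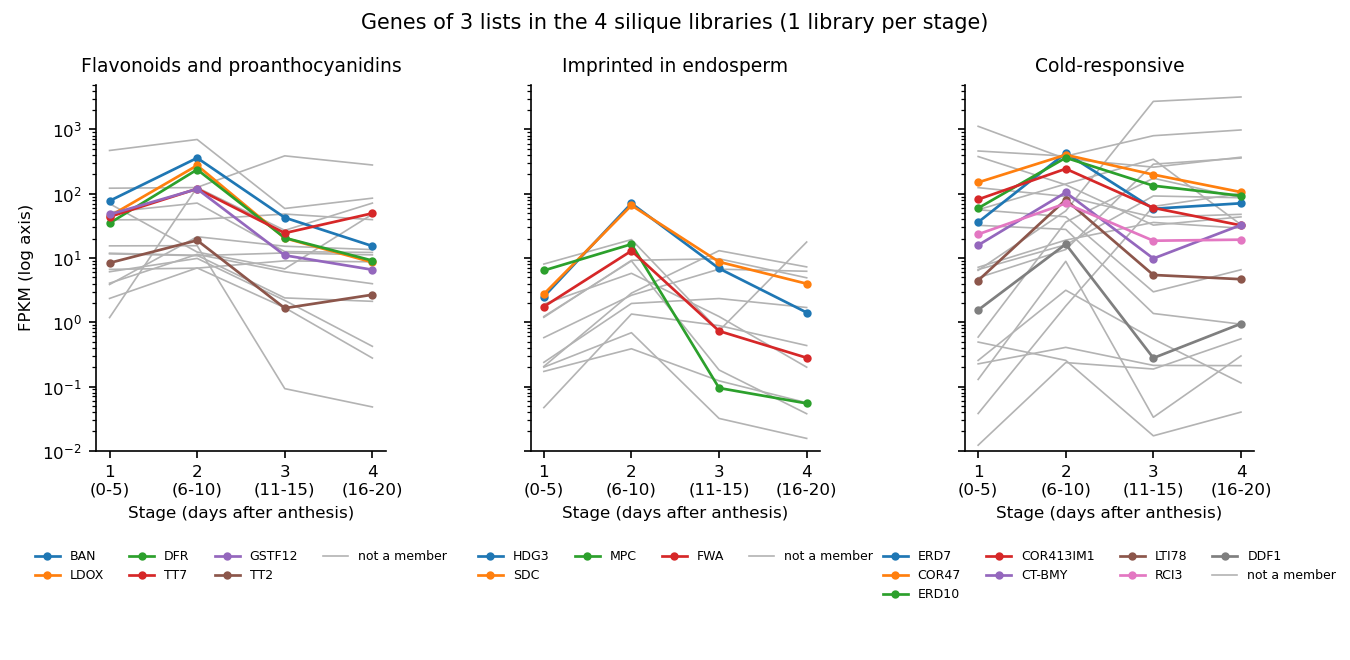
FPKM (log axis) of single genes against stage for 3 gene lists, with genes peaking in stage 2 in colour and the other listed genes in grey; genes listed at 0 in any library are left out, and each point is 1 library. DFR, LDOX and BAN form a shared peak in stage 2, HDG3 and SDC reach about the same height among imprinted genes, and several grey cold-responsive genes, RAB18 the highest, are far higher in stages 3 and 4.

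Among genes imprinted in endosperm, on a list written after values of these data had been seen, 5 of 17 were eligible and 4 of them peaked in stage 2, against 2.51% of all eligible loci. HDG3, a homeodomain factor expressed mainly from the paternal copy, had 2.50, 70.7, 6.87 and 1.42 FPKM in stages 1 to 4. SDC, an F-box gene silenced by DNA methylation in leaves and expressed from the maternal copy in endosperm, had 2.74, 65.8, 8.70 and 3.98 FPKM in stages 1 to 4. FWA, a homeodomain factor expressed from the maternal copy, had 1.75, 12.9, 0.730 and 0.280 FPKM in stages 1 to 4. MPC, which resembles the end of a poly(A)-binding protein and is maternally expressed, had 6.39, 16.4, 0.0948 and 0.0546 FPKM in stages 1 to 4. HDG3 and SDC were above FPKM 1 in every stage, while FWA and MPC were below it in stages 3 and 4. PHE1, a paternally expressed type I MADS-box gene and the fifth eligible locus, had 8.04, 19.3, 0.736 and 17.7 FPKM in stages 1 to 4. Its stage 4 value nearly equalled the peak. HDG8, which had 1.23, 8.99, 0.181 and 0.0377 FPKM in stages 1 to 4, missed the rule through its FPKM. The other listed genes had stage 2 values of at most 9.19 FPKM. Of the 14 listed genes above 0 in every library, 10 were highest in stage 2. MEA, MYB3R2, VIM5 and YUC10 were highest in stage 3, YUC10 with 0.205, 2.84, 13.0 and 7.26 FPKM in stages 1 to 4. PEG2, listed at 0 in stage 4, was highest in stage 1 with 4.52 FPKM, against 0.793 FPKM in stage 2.

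Type I MADS-box genes, of which several act in the endosperm, were mostly too low for the rule. Of 16 listed, 2 were eligible, and AGL40 peaked in stage 2 with 2.80, 13.3, 0.237 and 0.249 FPKM in stages 1 to 4. PHE2, listed in RefSeq as AGL38, had 1.75, 9.70, 0.459 and 0.0895 FPKM in stages 1 to 4, just under the limit of FPKM 10, and AGL33 had 0.940, 9.24, 0.811 and 0.105 FPKM in stages 1 to 4. The list summed to 25.3, 79.5, 11.5 and 30.4 FPKM in stages 1, 2, 3 and 4. A pair of neighbouring MADS-box genes outside the list, AT1G59920 being picked after its values were seen, also peaked in stage 2, AT1G59930 with 0.157, 31.7, 7.46 and 2.11 FPKM in stages 1 to 4 and AT1G59920 with 0.288, 11.5, 3.16 and 1.11 FPKM in stages 1 to 4. Of the 27 genes listed for endosperm growth and signalling, 9 were eligible and 2 peaked (22.2%, against 2.51% of all eligible loci). These 2 were FWA and MPC, already counted among the imprinted genes. ZOU, a bHLH factor required for the breakdown of endosperm, had 0.158, 24.4, 20.7 and 3.31 FPKM in stages 1 to 4, about level between stages 2 and 3. ALE1, a subtilisin-like protease of the endosperm, had 0.102, 18.1, 17.6 and 2.70 FPKM in stages 1 to 4. MYB118, an endosperm MYB factor, had 0.115, 26.9, 28.9 and 7.90 FPKM in stages 1 to 4. These 3 genes were low in stage 1 like many peaking loci, but still high in stage 3.

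Among cold-responsive genes, again a list written after values had been seen, 8 of 20 eligible genes peaked in stage 2 (40.0%, against 2.51% over all eligible loci). LTI78, a stress protein induced by cold, drought and salt, had 4.46, 80.6, 5.44 and 4.67 FPKM in stages 1 to 4. ERD7, a dehydration-induced protein, had 36.0, 429, 58.3 and 70.9 FPKM in stages 1 to 4. The neighbouring dehydrin genes COR47 and ERD10 had 149.9, 402, 198 and 106 FPKM in stages 1 to 4, and 59.5, 362, 133 and 92.9 FPKM in stages 1 to 4. COR413IM1, a protein of the inner chloroplast envelope, had 81.4, 244, 60.2 and 32.1 FPKM in stages 1 to 4. CT-BMY, a plastid beta-amylase that degrades starch, had 15.8, 105, 9.81 and 32.6 FPKM in stages 1 to 4. RCI3, a peroxidase, had 23.4, 70.6, 18.5 and 19.3 FPKM in stages 1 to 4. DDF1, an AP2-type factor related to the CBF factors, had 1.55, 16.4, 0.278 and 0.949 FPKM in stages 1 to 4. Other genes of the list did not share the peak. COR15A had 32.2, 27.8, 1.37 and 0.933 FPKM in stages 1 to 4. RAB18, a dehydrin of maturing seeds, had 6.42, 54.0, 2731 and 3199 FPKM in stages 1 to 4. CBF1, the best-known regulator of the response, had 0.255, 3.15, 0.549 and 0.114 FPKM in stages 1 to 4, too low to be eligible. The median margin over the 20 eligible genes was -0.41 log2 units, against -0.44 over all eligible loci.

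Seed coat, embryo and hormone genes gave a few members each, to be read against the 2.51% of all eligible loci that peaked, a share at which a list of 22 genes would hold fewer than 1. Of 22 eligible genes of mucilage and seed coat epidermis, 2 peaked in stage 2. PRX36, a peroxidase that loosens the outer wall of mucilage cells, had 0.154, 76.6, 30.5 and 11.9 FPKM in stages 1 to 4. MYB61, a MYB factor of mucilage deposition, had 4.87, 49.1, 19.6 and 8.40 FPKM in stages 1 to 4. Both had their second highest value in stage 3, and the list summed to 842, 1813, 1616 and 931 FPKM in stages 1 to 4. Of 4 eligible regulators of seed maturation, LEC1, a subunit of a CCAAT-binding factor that acts early in the embryo, had 0.489, 78.6, 31.6 and 8.00 FPKM in stages 1 to 4. Of the same 4, 2 were highest in stage 2, and the median margin over the 4 was -1.10 log2 units. FUS3 had 0.152, 22.1, 112 and 114 FPKM in stages 1 to 4, and EEL had 1.17, 22.1, 260 and 331 FPKM. Of 7 eligible genes of gibberellin metabolism, GA2OX6, which inactivates gibberellins, had 1.70, 18.1, 1.69 and 2.36 FPKM in stages 1 to 4. Of the same 7, 2 were highest in stage 2, and the median margin over the 7 was -0.78 log2 units. GA2OX2 had 95.7, 12.6, 3.67 and 4.26 FPKM in stages 1 to 4, and GA20OX3 had 0.448, 111, 279 and 157 FPKM. No gene peaked in stage 2 among 22 eligible genes of fatty acid and oil synthesis, 9 of cell division or 13 of sugar and amino acid supply. The eligible pod wall photosynthesis markers, 3 genes, and the 4 embryo storage markers gave none either. Among the 9 cell division genes, 5 (55.6%) had their highest value in stage 2 without reaching 2-fold, against 20.2% of all eligible loci highest there.

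Small cysteine-rich proteins, taken as at most 120 residues with at least 6 cysteines, were coded by 26 of the 230 peaking loci with a protein (11.3%, 95% exact binomial interval 7.52% to 16.1%). The interval treats loci as independent draws, although some are neighbours of 1 family, and it holds no error between libraries. Among the other eligible loci small cysteine-rich proteins were 104 of 9001 (1.16%). By the same rule they were 2.60% of the loci peaking in stage 1, 2.98% of those peaking in stage 3 and 3.59% of those peaking in stage 4. Transcript length went with this result. A transcript under 600 bases belonged to 21.5% of the peaking loci and to 1.75% of the other eligible loci, and 24 of the 26 cysteine-rich loci had one. Within that class 24 of 47 peaking loci (51.1%) and 39 of 150 other loci (26.0%) were small and cysteine-rich. Among longer transcripts it was 2 of 183 (1.09%) and 65 of 8851 (0.734%). Eligible transcripts under 600 bases as a class had a median difference of stage 2 over stages 1, 3 and 4 of 0.51, 0.55 and 0.33 log2 units. For transcripts of 1000 to 1500 bases the medians were -0.01, 0.03 and 0.07. FPKM of short transcripts depends on the fragment lengths of a library, which are not given in the sources used here, and the part of transcript length in the result was not tested.

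The 26 loci covered a wide range of levels, from 13.6 to 984 FPKM in stage 2, with medians of 5.68, 63.5, 7.99 and 3.27 FPKM in stages 1, 2, 3 and 4. The second highest value lay in stage 1 for 13 of them and in stage 3 for the other 13. Of the 26, 19 were lower in stage 4 than in stage 3 by 1 log2 unit and none was higher. Stage 4 was lower by that limit for 38.9% of all peaking loci and 6.48% of eligible loci. It was higher for only 3.42% of all peaking loci and 2.36% of eligible loci, so finding none among 26 says little. The defensin-like, thionin-like, SCR-like and cysteine-rich annotations made up 13 of the 26, and lipid-transfer annotations another 5. By the same rule, 10 loci with the first group of annotations peaked in stage 1, none in stage 3 and 2 in stage 4. The class of small cysteine-rich proteins was set by length and cysteines alone, and secretion was not examined. AT1G48195, a zinc finger protein by annotation, was also among the 26. AT2G30810, AT3G17155, AT3G16895 and AT1G21395, given with the coding sequences, and the 5 loci described after AT1G77525 were picked after their values were seen. AT1G77525, defensin-like, had 269.9, 622, 167 and 34.5 FPKM in stages 1 to 4. AT5G63087, thionin-like, had 75.1, 302, 30.2 and 3.97 FPKM in stages 1 to 4. AT5G44973, defensin-like, had 28.1, 181, 26.0 and 7.24 FPKM in stages 1 to 4. These 3 were already at 28.1 FPKM or more in stage 1. AT1G53282, thionin-like, had 0.138, 261, 117 and 28.2 FPKM in stages 1 to 4. AT3G27835, a gamma-thionin, had 1.27, 67.3, 23.3 and 4.58 FPKM in stages 1 to 4. AT5G38180, lipid-transfer-like, had 0.824, 229.9, 91.4 and 26.2 FPKM in stages 1 to 4. These 3 were at or under 1.27 FPKM in stage 1 and second highest in stage 3.

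The coding sequences of GASA1 and 3 other loci are printed to show the cysteine pattern, with each in-frame cysteine codon in capitals and the introns removed, from the RefSeq models on TAIR10.1. GASA1 (chr1:28441501-28442435, minus strand) and AT2G30810 (chr2:13127826-13128666, minus strand), both gibberellin-regulated by annotation, each have 12 cysteines with the same spacing, and the stretch from the first cysteine codon to the stop codon is shown.
GASA1: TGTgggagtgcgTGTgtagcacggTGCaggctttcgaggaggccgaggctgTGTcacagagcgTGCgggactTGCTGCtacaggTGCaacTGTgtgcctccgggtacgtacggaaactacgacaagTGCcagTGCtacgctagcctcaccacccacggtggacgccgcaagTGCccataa
AT2G30810: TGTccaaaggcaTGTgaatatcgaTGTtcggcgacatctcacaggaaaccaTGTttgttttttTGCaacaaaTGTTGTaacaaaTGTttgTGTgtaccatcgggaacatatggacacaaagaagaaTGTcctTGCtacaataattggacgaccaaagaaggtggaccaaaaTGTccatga

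The pair shared its cysteine pattern but not its course. AT2G30810 had 71.7, 387, 1.70 and 0.235 FPKM in stages 1 to 4, so it was nearly gone in stage 4, while GASA1 was at 204 FPKM there. AT3G17155 (chr3:5850744-5851397, + strand) and AT3G16895 (chr3:5770868-5771544, minus strand), both annotated as cysteine-rich proteins, each have 11 cysteines, with 1 interval of 5 residues in AT3G17155 and 8 in AT3G16895 and all others equal, and these are shown whole.
AT3G17155: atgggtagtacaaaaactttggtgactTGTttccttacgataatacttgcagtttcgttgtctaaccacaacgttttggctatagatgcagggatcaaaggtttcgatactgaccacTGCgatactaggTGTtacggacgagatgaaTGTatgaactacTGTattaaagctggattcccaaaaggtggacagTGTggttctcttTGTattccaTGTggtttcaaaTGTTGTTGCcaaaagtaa
AT3G16895: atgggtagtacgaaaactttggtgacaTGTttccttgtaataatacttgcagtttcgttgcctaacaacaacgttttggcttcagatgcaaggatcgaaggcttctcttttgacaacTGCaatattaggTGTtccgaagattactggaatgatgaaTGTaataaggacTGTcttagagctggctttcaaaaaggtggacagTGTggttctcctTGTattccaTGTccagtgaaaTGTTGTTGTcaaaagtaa

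AT3G17155 had 0.152, 58.6, 24.8 and 6.01 FPKM in stages 1 to 4. AT3G16895 had 2.32, 115, 44.9 and 7.80 FPKM in stages 1 to 4. Here both members followed the same order of stages, with stage 3 second. In all, 3 pairs among the 26 had identical spacing. The others were AT1G21395 with AT2G36724, of 6 cysteines each, and the neighbours AT1G43666 with AT1G43667, of 8 each. AT2G36724 had 7.27, 76.0, 0.430 and 0.437 FPKM in stages 1 to 4, whereas AT1G21395 had 14.6, 87.1, 20.2 and 3.79 FPKM in stages 1 to 4.

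**Figure D3:**
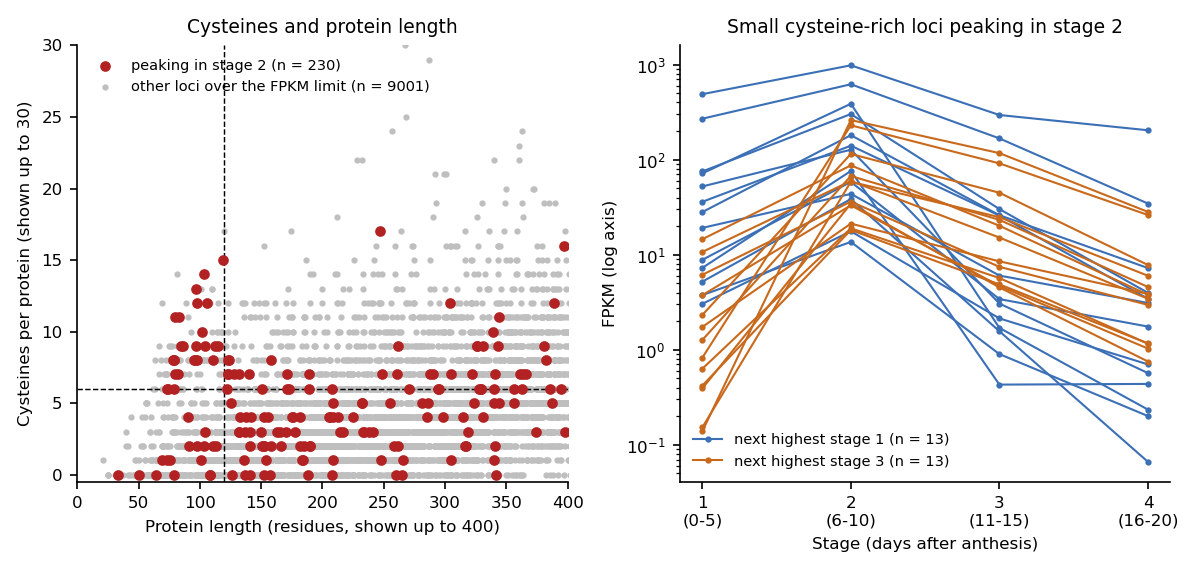
Left, cysteines per protein against protein length in residues for the 230 loci peaking in stage 2 (red) and the 9001 other eligible loci (grey), with dashed lines at 120 residues and 6 cysteines. Right, FPKM (log axis) by stage of the 26 small cysteine-rich loci that peak in stage 2, 13 with stage 1 second (blue) and 13 with stage 3 second (orange); most blue lines start higher than the orange ones, and several lines end under FPKM 1.

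Other protein families, grouped by RefSeq descriptions after values had been seen, are given as counts out of their eligible loci, and members named from them were mostly picked at that point too. The self-incompatibility S1 family had 4 of 5, while 2 of its loci peaked in stage 1 by the same rule. AT1G04645 of that family had 46.2, 132, 23.1 and 5.40 FPKM in stages 1 to 4, while the neighbours AT1G26797 and AT1G26799 had 0.0779, 19.4, 6.64 and 0.603 FPKM in stages 1 to 4, and 0.251, 10.7, 1.61 and 0.141 FPKM in stages 1 to 4. Annexins, calcium-dependent membrane-binding proteins, had 3 of 5. ANNAT7 had 2.73, 61.5, 12.0 and 1.03 FPKM in stages 1 to 4, ANNAT4 had 18.0, 75.6, 9.88 and 16.0 FPKM in stages 1 to 4, and ANNAT2 had 47.1, 100.3, 30.8 and 16.5 FPKM in stages 1 to 4. Their peaks were of like height, but stage 1 differed by over 10-fold between ANNAT7 and ANNAT2. The carbohydrate-binding X8 family, whose domain binds callose in some members, had 3 of 8. The neighbours AT5G63230 and AT5G63250 of that family had 8.83, 58.4, 3.41 and 1.75 FPKM in stages 1 to 4, and 0.115, 76.4, 35.2 and 8.06 FPKM in stages 1 to 4, so 1 was second highest in stage 1 and 1 in stage 3.

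SKP1-like and cullin proteins are parts of SCF ubiquitin ligases, which mark proteins for breakdown, and 6 of 20 eligible loci peaked in stage 2. All 6 were low, between 11.2 and 16.6 FPKM at the peak, and under FPKM 1 in stage 4. CUL2 had 1.09, 12.1, 1.31 and 0.198 FPKM in stages 1 to 4. SK16 had 2.59, 13.6, 0.930 and 0.163 FPKM in stages 1 to 4. SK3 had 5.35, 16.4, 1.44 and 0.229 FPKM in stages 1 to 4. The SKP1-like genes are similar in sequence, so the split of fragments among them is uncertain. The inhibitors of invertase or pectin methylesterase had 6 of 22, while 14 loci of the family peaked in stage 1 by the same rule. The lipid-transfer superfamily had 7 of 34, while 12 of its loci peaked in stage 1 and 9 in stage 3. Glutathione S-transferases had 4 of 19, the emp24/gp25L/p24 proteins of vesicle traffic 3 of 11, MADS-box proteins 3 of 17, chlorophyll a/b-binding proteins 2 of 9 and the ECA1 gametogenesis family 1 of 2. By the same rule 3 MADS-box loci peaked in stage 1 and 1 in stage 4, as did 1 glutathione S-transferase in stage 4. The annexin, X8, SKP1-like and cullin, p24, chlorophyll-binding and ECA1 families had none peaking in other stages. Of the glutathione S-transferases, GSTU15 had 0.381, 32.7, 5.13 and 1.52 FPKM in stages 1 to 4, and GSTF6 had 59.9, 244, 17.5 and 45.7 FPKM in stages 1 to 4.

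**Figure D4:**
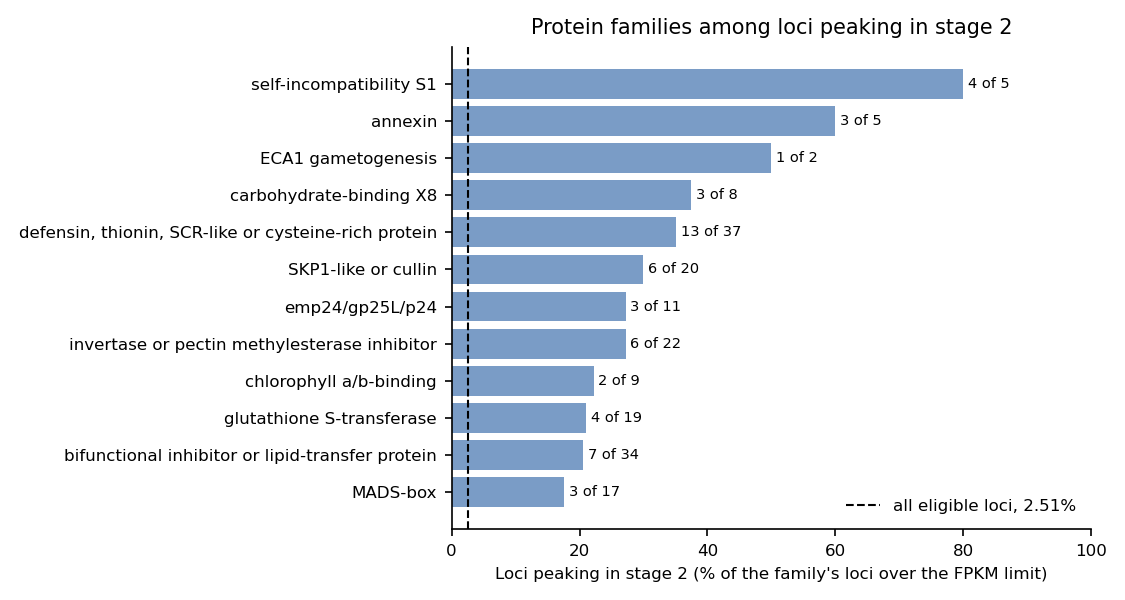
Bars give the loci peaking in stage 2 as a percentage of the eligible loci (FPKM of at least 10 in stage 2) of each protein family, with the counts beside the bars and a dashed line at 2.51%, the share over all eligible loci. The families were grouped after values had been seen, so bars far above the line, such as 4 of 5 for the S1 family, describe these loci and test nothing.

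Loci called regulators here were mostly matched by words of the RefSeq description, zinc finger among them. Such a match does not show a role in transcription. Their levels covered a wide range. GATA29, a GATA zinc finger factor, had 0.0268, 40.7, 9.19 and 2.12 FPKM in stages 1 to 4. RL6, a short MYB-like protein that was picked after its values were seen, had 0.645, 25.8, 3.21 and 1.08 FPKM in stages 1 to 4. AT1G48195, with a CCCH-type zinc finger, had 0.391, 34.4, 4.53 and 0.752 FPKM in stages 1 to 4. All 3 were under FPKM 1 in stage 1 and second highest in stage 3. The neighbouring Dof-type genes DOF4.3 and DOF4.5 had 0.184, 18.1, 4.63 and 0.603 FPKM in stages 1 to 4, and 0.153, 10.4, 1.84 and 0.315 FPKM in stages 1 to 4. BBX17, a B-box protein, had 9.50, 26.9, 5.32 and 3.32 FPKM in stages 1 to 4. ZFN1, a zinc finger protein, had 23.6, 57.6, 17.4 and 18.3 FPKM in stages 1 to 4. LOV1, a NAC factor, had 5.58, 14.0, 3.96 and 6.08 FPKM in stages 1 to 4. BBX17 and ZFN1 were second highest in stage 1, and LOV1 in stage 4.

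Genes of hormones, walls and plastids were also among the 234, picked here after their values were seen. ARR7 and ARR9, response regulators that dampen cytokinin signalling, had 8.23, 22.4, 5.53 and 9.59 FPKM in stages 1 to 4, and 4.04, 12.6, 3.10 and 2.43 FPKM in stages 1 to 4. IAMT1, which methylates the auxin IAA, had 21.5, 61.8, 10.4 and 12.6 FPKM in stages 1 to 4. AOC3, an allene oxide cyclase of jasmonate synthesis, had 13.5, 32.4, 5.62 and 10.9 FPKM in stages 1 to 4, and CYP94B3, which inactivates the active jasmonate, had 0.881, 20.9, 0.554 and 3.85 FPKM in stages 1 to 4. These 5 genes reached at most 61.8 FPKM. IRX3, a cellulose synthase of secondary walls, had 8.37, 23.5, 9.49 and 6.57 FPKM in stages 1 to 4. IRX6, a COBRA-like protein of secondary walls, had 5.53, 21.1, 4.95 and 5.36 FPKM in stages 1 to 4. Both were under FPKM 10 in each other stage. HEMA1, of chlorophyll and heme synthesis, had 64.2, 171, 72.5 and 48.7 FPKM in stages 1 to 4. CA2, a carbonic anhydrase, had 81.6, 234, 23.4 and 12.8 FPKM in stages 1 to 4. APL3, a subunit of the enzyme that makes ADP-glucose for starch, had 11.1, 36.9, 8.39 and 13.2 FPKM in stages 1 to 4.

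Some of the peaking loci lay near each other. Of the 234, 46 (19.7%) started within 20 kb of another one, while 9.08% of the other eligible loci had a peaking locus that near. By the same rule the share was 45.7% for the 1299 loci peaking in stage 1, 18.3% for the 235 peaking in stage 3 and 19.0% for the 310 peaking in stage 4. These sets differ in size, so their shares are not set against each other here. Without transcripts under 600 bases it was 12.6% for stage 2. The 46 loci formed 20 runs, of which 5 had 3 or more loci, on chromosomes 1 and 2. Chromosome 1 held 82 of the 234 loci, 3.39% of its eligible loci, and chromosome 3 held 34, or 1.80%.

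A run of 4 loci on chromosome 2, between positions 647756 and 675656 of TAIR10, held LOV1 and the uncharacterized loci AT2G02490, AT2G02498 and AT2G02515. AT2G02498 had 9.77, 167, 0.361 and 0.172 FPKM in stages 1 to 4. AT2G02490 had 3.56, 42.1, 0.0176 and 0.0671 FPKM in stages 1 to 4. AT2G02515 had 44.0, 214, 3.99 and 0.864 FPKM in stages 1 to 4. The 3 uncharacterized loci were all second highest in stage 1, unlike LOV1. A run on chromosome 1, from 661177 to 681310, held GSTF6, GSTF5 and CUL2, and GSTF5 had 4.60, 25.2, 0.868 and 0.401 FPKM in stages 1 to 4. Another, from 4658538 to 4682263, held the defensin-like AT1G13605 with 52.3, 127, 3.06 and 0.569 FPKM in stages 1 to 4, the defensin-like AT1G13609 with 19.1, 43.7, 6.03 and 3.11 FPKM in stages 1 to 4, and AT1G13650 with 3.20, 11.6, 0.926 and 2.07 FPKM in stages 1 to 4. The third on that chromosome, from 16452981 to 16465565, held 3 lipid-transfer-like loci. AT1G43665 had 6.71, 14.5, 1.05 and 0.0858 FPKM in stages 1 to 4, while AT1G43666 had 0.631, 19.0, 5.68 and 1.16 FPKM in stages 1 to 4 and AT1G43667 had 0.419, 18.2, 4.87 and 1.17 FPKM in stages 1 to 4. The last 2 lay closest in stages 2 and 4 and were farthest apart in stage 1. On chromosome 2, from 7673282 to 7694746, SDC lay between AT2G17710 and AT2G17660, which had 1.18, 28.2, 1.50 and 1.40 FPKM in stages 1 to 4.

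**Figure D5:**
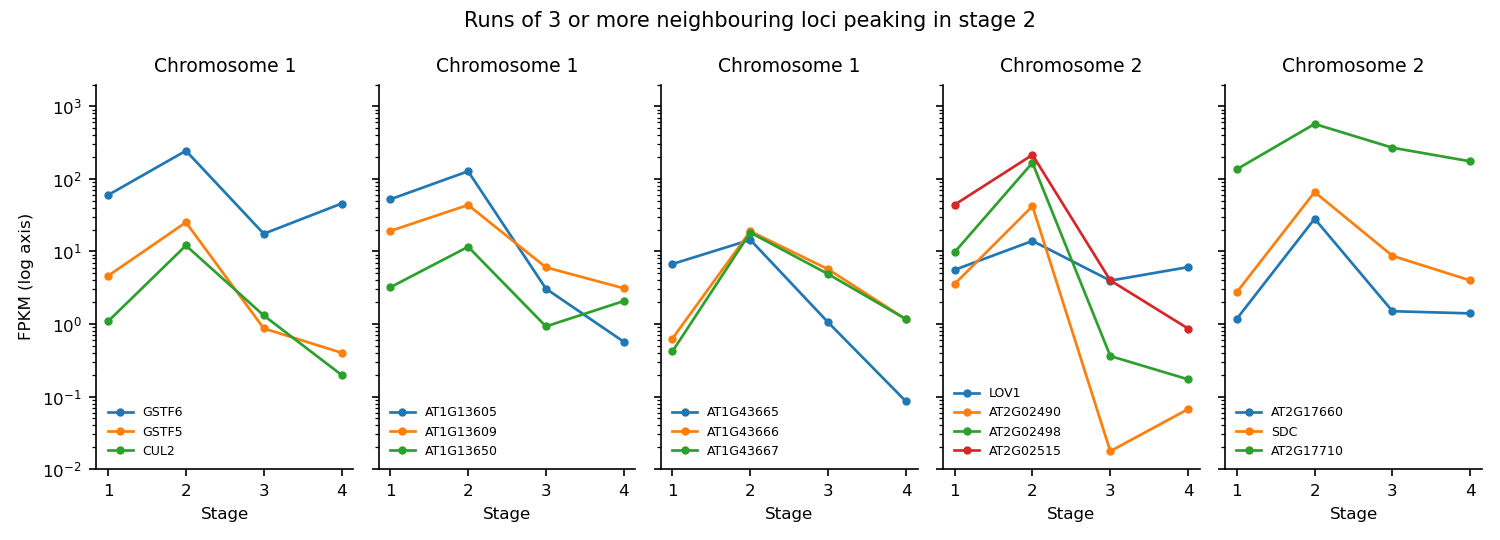
FPKM (log axis) by stage for the 5 runs of at least 3 loci peaking in stage 2 whose starts lie within 20 kb of the next, 1 panel per run and 1 line per locus. AT1G43666 and AT1G43667 lie close together in stages 2 to 4, and the uncharacterized loci of the run with LOV1 are each higher in stage 1 than in stages 3 and 4.

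The loci nearest to the limits of the rule are given as a description. Just inside the 2-fold limit lay AT1G43665, GASA1 and FBS1, an F-box gene with 2.16, 11.7, 5.30 and 5.17 FPKM in stages 1 to 4. Just outside lay AT3G05460 with 55.7, 112, 1.07 and 0.684 FPKM in stages 1 to 4, AT1G23205 with 28.4, 57.5, 7.85 and 9.57 FPKM in stages 1 to 4, and AT3G44190 with 11.2, 30.9, 15.1 and 13.6 FPKM in stages 1 to 4. Their margins ran from 0.99 to 1.01 log2 units. At the FPKM limit, DOF4.5, AT1G26799 and AT4G21930 lay just inside with stage 2 values of 10.4, 10.7 and 11.0 FPKM. AT3G10290, PHE2 and OFP8 lay just outside with 9.81, 9.70 and 9.69 FPKM. Of the 234 loci, 233 were found in RefSeq, 230 of them protein coding. A product called uncharacterized was given for 19 of the peaking loci (8.12%), against 4.63% of eligible loci.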

How the data were processed

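Silique RNA was measured in 4 libraries, 1 per stage. The authors' deposited files give FPKM per Cufflinks locus; TopHat, Cufflinks, Cuffdiff and the TAIR10 build are named per the submitters' processing notes, and their versions are not given in the sources used here. Groups follow the developmental stage label; the growth protocol gives stage 1 from day 1, stage 2 in place of stage 3, and days 6 to 10 for stage 4. The 30915 rows reduce to 29971 loci, 29153 of them naming 1 gene.

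The 234 loci, gene lists and families were chosen with earlier results of these data known. Genes named in the text are the 20 with the largest margin, the 10 with the highest stage 2 FPKM, up to 6 per list, the 10 most abundant regulators, runs of 3 or more neighbours and the loci at the limits; others, among them the cold-responsive genes beyond the rule and most named members of families and of the cysteine-rich set, were picked after their values were seen. Proteins, transcript lengths and promoters come from RefSeq on TAIR10.1, where 28733 single-gene loci were found and 28732 overlapped the deposited coordinates; the planned protein table was replaced by translating RefSeq coding sequences. With 1 library per stage no test was run. Counting by the rule was tested on simulated data. Depth came from FPKM steps after subtracting 260 bases from transcript length, with 68.3% to 78.7% of 230 to 268 low values per library whole within 0.2 fragments, a length and step chosen on those same values. The interval given treats loci as independent draws and holds no error between libraries. Values were computed in Python 3.11.15 with pandas 2.3.3 and numpy 2.4.6, intervals with SciPy 1.17.1, and plots with matplotlib 3.10.9.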

Additional observations from a re-analysis of the deposited data

How the results depend on the processing

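No paired analysis was possible because each stage has 1 library. The 234 loci numbered 66 at a 4-fold limit, 408 with no minimum of FPKM and 423 with libraries scaled to equal FPKM sums over loci of 300 bases or more, all by construction of the rule or of the scale. Under the other alternatives the number ran from 169 to 305. With libraries scaled to equal FPKM sums there were 297, of which 175 were shared with the 234, and to a common median ratio 227. Of the loci with stage 3 higher than stage 1 (57 as reported) there were 5 at the 4-fold limit, 98 with sums over loci of 300 bases or more and 24 with a pseudocount of 5. Of those with stage 3 lower (56) there were 7 at the 4-fold limit and 24 with a pseudocount of 5. The share of small cysteine-rich proteins (11.3%) was 16.2% with loci listed at 0 kept, 7.25% with no minimum of FPKM, and 1.09% without transcripts under 600 bases, an alternative added after seeing the data. The share with a neighbour (19.7%) was 10.3% at 5 kb, 31.2% at 50 kb, 13.0% with FPKM of at least 20 and 12.6% without transcripts under 600 bases. Where no construction shows it, the cause was not tested. Of 58 genes named by rule, 18 kept to it under every setting run, 16 were left out with transcripts under 600 bases, and none reversed. Depth limits values under about 3 fragments, which is 0.0228 to 0.0390 FPKM on 1500 bases.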

Other observations

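Some loci met the fold and FPKM limits but were kept out of the 234. There were 30 listed at exactly 0 in at least 1 other library, 23 of them in stage 4, 14 in stage 3 and 6 in stage 1, and a 0 in these files can be a failed estimate, so no fold is given. They include storage protein genes. CRA1, a cruciferin, had 10.8, 975, 0 and 0 FPKM in stages 1 to 4, and SESA3, a storage albumin, had 19.4, 1070.1, 0 and 0 FPKM in stages 1 to 4. The 0 values of these genes in stages 3 and 4 stand beside 54313 and 67876 FPKM summed over the readable storage markers. Of the 29 such loci with a protein, 16 were small and cysteine-rich, against 104 of 9001 (1.16%) among the other eligible loci. The share over all loci listed at 0, peaking or not, was not counted, so the 16 are a description. AT5G55132, defensin-like, had 45.5, 296, 0.476 and 0 FPKM in stages 1 to 4. SCRL10, SCR-like, had 87.2, 213, 0.446 and 0 FPKM in stages 1 to 4. LCR35, a low-molecular-weight cysteine-rich protein, had 22.8, 73.0, 0 and 0 FPKM in stages 1 to 4. CLE8, a peptide signal of the CLAVATA3 and ESR type that acts in young seeds, had 0.913, 26.1, 0.331 and 0 FPKM in stages 1 to 4.

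A further 12 loci named several genes. The locus of AT3G20210 and AT3G20220, a protease gene and an auxin-responsive SAUR-like gene, had 40.1, 1863, 338 and 119.9 FPKM in stages 1 to 4 for both together, a stage 2 level that 1 locus among the 234 exceeded. The locus of AT2G19796, AT2G19800 and AT2G19802 had 12.6, 458, 78.0 and 16.8 FPKM in stages 1 to 4. AT5G61412, a single gene, met the rule but for its span of under 300 bases, with 9.47, 41.1, 10.7 and 6.94 FPKM in stages 1 to 4.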
